A study of Mus musculus with 8 samples.

Results

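The collagen genes were taken as every gene whose symbol is Col, a type number, the letter a and a chain number, measured by a probe set that names exactly 1 gene. Of the 30718 named genes on the array, 43 were collagen genes by this rule, and each had 1 probe set. They are 43 of the 44 collagen genes in the RefSeq table of build GRCm38.p6. Col7a1 was left out, because its only probe set also names the microRNA gene Mir711.

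RNA was measured in the colons of 8 Rag1-/- mice of strain C57BL/6, which lack mature T and B cells of their own. The 5 control mice had been injected with regulatory T cells (Tregs) and had non-inflamed colons. The 3 inflamed mice had been injected with naïve T cells, which cause colitis in such hosts, and were killed with signs of severe inflammation. T cells were given at the age of 10 weeks and tissue was taken after a further 2 to 4 months, whereas the labelled age is 4 to 5 months, so the 2 statements are not fully compatible. The sampled region is given as distal colon in one source and as a strip from cecum to rectum in the other, so it is uncertain. Replicates are labelled as biological, and each array was taken as 1 mouse.

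Collagens are the main structural proteins of the extracellular matrix. Their chains wind around each other inside the endoplasmic reticulum, and each collagen type is built from its own set of chains, so that chains of the same trimer are made together. In the intestine, fibroblasts and smooth muscle cells make the fibrillar types I, III and V of the submucosa and muscle coat, and type IV networks form the basement membranes under epithelium, around vessels and around muscle cells. Inflammation of the gut is known for both breakdown of this matrix by metalloproteinases and, when it persists, deposition of new fibrils.

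Values are deposited log2 intensities, and a change is the inflamed mean minus the control mean on the log2 scale, given with its limma standard error (SE) over 5 control and 3 inflamed arrays. A gene is said to have risen or fallen where its Benjamini-Hochberg adjusted p over all 30718 genes was under 0.05. Array medians lay between 4.81 and 4.91. Markers of colon epithelium were bright on all arrays, with list means of 11.58 to 11.95. All 10 leukocyte markers rose, Lyz2 by 2.76, Ptprc by 2.62 and Itgb2 by 2.17 among them, from list means of 6.04 to 6.25 on control arrays to 7.84 to 7.97 on inflamed arrays. Of 3 markers of small intestine, Fabp6 fell by 1.82 ± 0.40 (limma adjusted p = 0.0258, passing in 2 of 8 fits with 1 array left out) and Slc10a2 by 0.95 ± 0.17 (adjusted p = 0.0127, 7 of 8 fits), so the groups also differed in genes that vary along the gut. The part of the sampled region in the collagen values was not tested. Sex is not given in the labels. Xist, an RNA of female cells, was between 4.11 and 4.53 on 4 arrays, and between 10.65 and 11.28 on inflamed replicate 3 and control replicates 3, 4 and 5.

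Of the 43 collagen genes, 1 fell in inflamed colon and 0 rose in the limma test. Over all genes, 13.1% passed the same test, 8.08% as rises and 5.05% as falls. The gene that fell was Col8a1, which encodes a short-chain collagen of vessel walls and of the cornea. At an unadjusted p under 0.05 there were 11 collagen genes, 7 with a higher and 4 with a lower inflamed mean, against 28.5% of all genes at that level. The 3 inflamed values lay outside the control range for 4 collagen genes (9.3%), above it for Col18a1 and below it for Col8a1, Col14a1 and Col20a1. The share over all genes was 21.2%. The median change over the 43 genes was -0.09, beside -0.01 over all genes, with 13 positive and 30 negative differences. In bulk tissue, fewer cells of a type and less RNA per cell cannot be told apart.

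**Figure D1:**
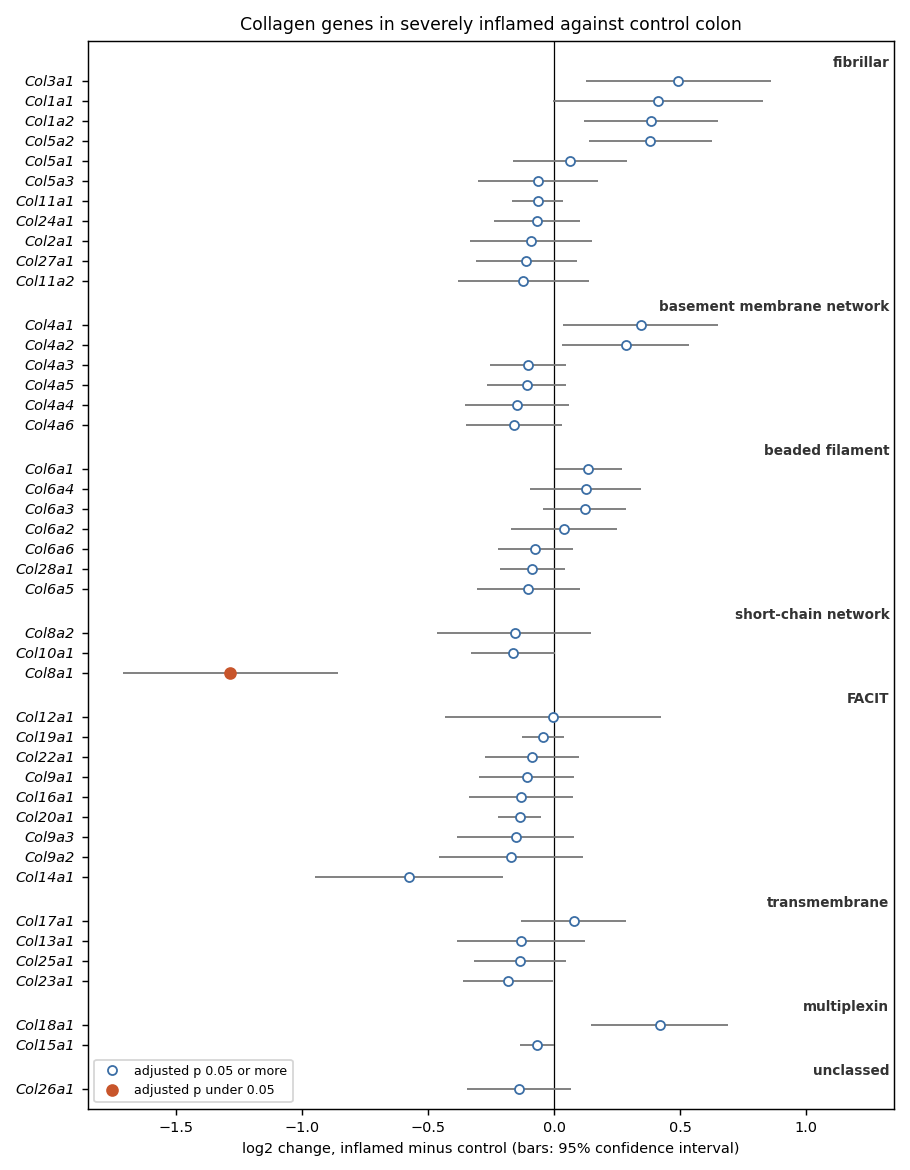
Change of each of the 43 collagen genes (log2, inflamed mean of 3 arrays minus control mean of 5), grouped by structural class, with 95% confidence intervals from limma as horizontal bars. Only Col8a1 (filled point, -1.28) passed an adjusted p of 0.05. The fibrillar genes Col3a1, Col1a1, Col1a2 and Col5a2 and the basement membrane genes Col4a1, Col4a2 and Col18a1 lie to the right of 0, and most other classes lie slightly to the left.

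The inflamed arrays were not alike for this family. Relative to the control mean, the median over the 43 genes was 0.004 on inflamed replicate 1, -0.27 on replicate 2 and 0.01 on replicate 3, against -0.02 on replicate 2 over all genes. For 30 of the 43 genes (69.8%) the lowest of the 8 values was that of inflamed replicate 2, compared with 29.2% of all genes. The separation of exonic from intronic control probe sets (area under the curve, where 1 is complete) was also lowest on that array, at 0.878, and 0.883 to 0.898 on the others. These 30 genes include 8 of the 9 fibril-associated collagens, all 4 transmembrane collagens and 7 of the 11 fibrillar ones. For 28 collagen genes (65.1%) at least 3 arrays carried exactly the same deposited value, compared with 39.7% of all genes. Col19a1, for example, was listed at 4.75 on 7 arrays and at 4.62 on inflamed replicate 2. Whether these shared values bear on the small negative differences was not tested.

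**Figure D2:**
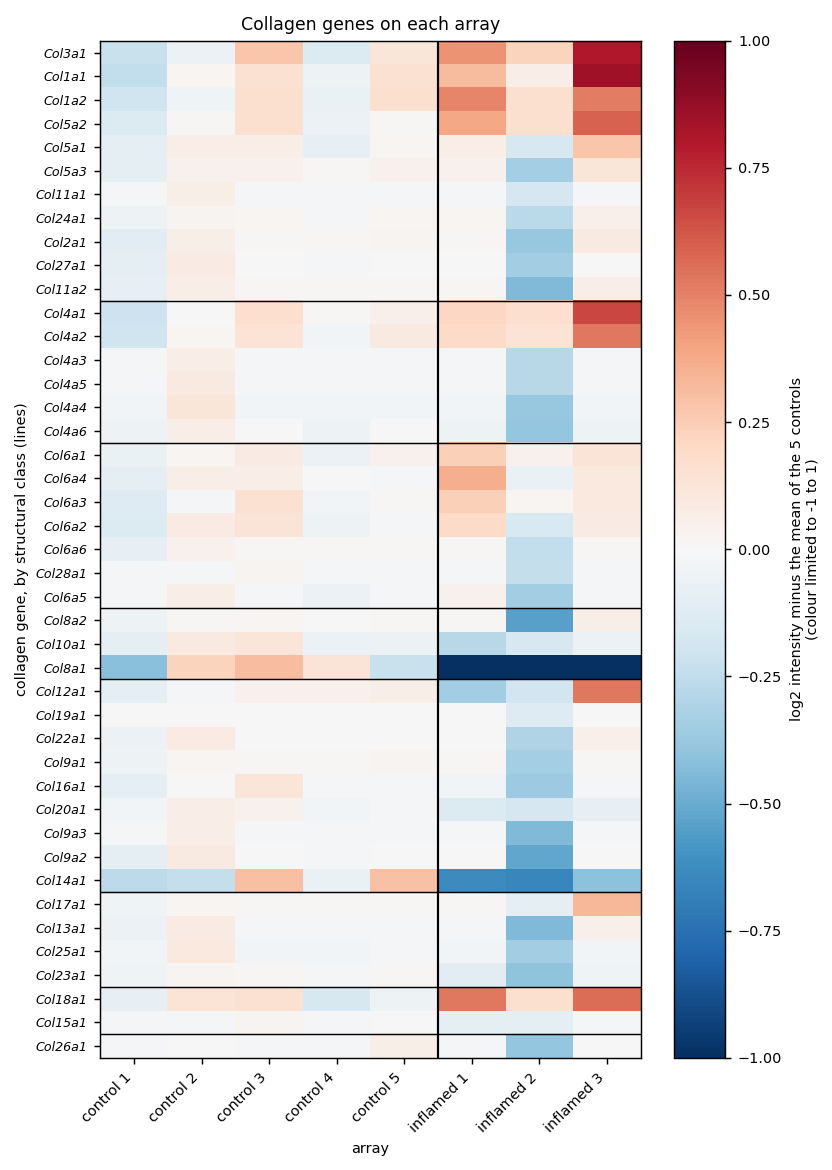
Each of the 43 collagen genes (rows, by structural class) on each of the 8 arrays (columns), coloured by its log2 intensity minus the mean of the 5 control arrays, with colour limited to -1 to 1. The column of inflamed replicate 2 is blue over most classes, with a median of -0.27, and the type I, III, V and IV genes at the top of their classes are red on inflamed replicates 1 and 3.

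Col8a1 was at 6.17, 6.81, 6.90, 6.72 and 6.37 on the 5 control arrays and at 5.11, 5.44 and 5.37 on the 3 inflamed arrays. The lowest control lay above the highest inflamed mouse, and inflamed replicate 2 was the highest of its group here, unlike for most of the family. The gene fell by 1.28 ± 0.18, which is 2.44-fold (limma adjusted p = 0.00496). With any 1 array left out the change lay between -1.39 and -1.19, and the gene passed each time. Its partner chain Col8a2 was at 6.26 to 6.33 on controls and at 6.32, 5.77 and 6.37 on inflamed arrays. Its change of -0.16 ± 0.13 did not pass (adjusted p = 0.456), and the inflamed values lie on both sides of the control range. Markers of smooth muscle were lower on the same arrays: 5 of 8 fell, Cnn1 by 0.77 ± 0.13, Des by 0.73 ± 0.17 and Acta2 by 0.73 ± 0.12, and the list mean was 10.15 to 10.66 on controls and 9.67 to 9.77 on inflamed arrays. With any 1 array left out, 4 or 5 smooth muscle markers fell. Cnn1 and Acta2 passed in all 8 such fits, and Des in 3. Of 6 pericyte markers, Rgs5 fell by 0.61 ± 0.16, passing in 1 of 8 such fits, and 0 rose, with Cspg4 at -0.08 ± 0.04. Of 8 endothelial markers 0 passed in either direction in limma (1 at an unadjusted p under 0.05), with Cdh5 at 0.20 ± 0.11 and Tek at -0.14 ± 0.06. Of 7 markers of enteric glia and neurons 2 fell, Snap25 by 0.96 ± 0.21 (4 of 8 fits) and Uchl1 by 0.52 ± 0.12 (3 of 8 fits). The part of these cells, or of the sampled region, in the fall of Col8a1 was not tested.

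The sequence just before the transcript start of Col8a1, the only collagen gene that passed, is shown beside those of Col1a2 and Col3a1, which are fibrillar genes with positive differences. Each is the 250 bases upstream of the RefSeq start in build GRCm38.p6, written 5′ to 3′ on the gene's own strand, and capitals mark the TATA box TATAAA, the CCAAT box CCAAT and the GC box GGGCGG on either strand. The windows are chr16:57754738-57754987 on the minus strand for Col8a1, chr6:4505368-4505617 on the plus strand for Col1a2 and chr1:45311288-45311537 on the plus strand for Col3a1.
Col8a1: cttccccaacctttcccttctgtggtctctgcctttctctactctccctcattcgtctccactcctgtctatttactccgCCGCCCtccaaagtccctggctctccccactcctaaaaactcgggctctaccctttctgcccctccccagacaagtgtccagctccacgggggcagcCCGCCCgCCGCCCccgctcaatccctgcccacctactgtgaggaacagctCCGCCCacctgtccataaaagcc
Col1a2: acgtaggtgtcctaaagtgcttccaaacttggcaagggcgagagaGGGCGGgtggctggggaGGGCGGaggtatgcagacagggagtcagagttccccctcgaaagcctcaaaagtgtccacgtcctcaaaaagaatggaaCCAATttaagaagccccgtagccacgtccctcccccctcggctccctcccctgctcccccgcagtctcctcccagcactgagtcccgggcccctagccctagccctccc
Col3a1: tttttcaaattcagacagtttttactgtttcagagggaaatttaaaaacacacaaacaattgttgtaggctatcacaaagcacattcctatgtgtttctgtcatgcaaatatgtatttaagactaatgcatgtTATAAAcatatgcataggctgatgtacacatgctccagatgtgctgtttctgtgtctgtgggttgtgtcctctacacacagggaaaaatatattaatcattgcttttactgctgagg
The Col8a1 window holds 4 GC boxes, with 60.8% G and C. The Col1a2 window holds 1 CCAAT box and 2 GC boxes, with 62.0% G and C, and the Col3a1 window holds 1 TATAAA and is poor in G and C (35.2%). RefSeq gave such windows for 34 of the 43 genes, in 37 windows, and not for Col1a1, Col2a1, Col4a3, Col5a2, Col9a3, Col12a1, Col14a1, Col22a1 and Col26a1. A GC box was found in 56.8% of the collagen windows and in 32.7% of all 32851 windows of this length. TATAAA was found in 13.5% and 12.4%, and CCAAT in 32.4% and 33.8%. The median G and C content was 59.2% in collagen windows and 52.4% in all. These are matches of letters, and no binding was measured.

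Of the 11 fibrillar collagen genes 0 passed, and 3 were at an unadjusted p under 0.05, all with a higher inflamed mean. The share of all genes at that unadjusted level was 28.5% over both directions, and the fibrillar count over both directions is not above it. With a higher inflamed mean alone, 4754 of 30718 genes were at that level, beside 3 of the 11. The count was not tested. Among the 11 fibrillar genes the 4 largest positive differences belonged to types I, III and V, the fibrils of the submucosa. Col3a1, which encodes the chain of type III fibrils in gut wall and vessels, was at 8.18, 8.34, 8.68, 8.26 and 8.52 on controls and at 8.85, 8.62 and 9.20 on inflamed arrays. Inflamed replicate 2 lay inside the control range and the other inflamed values above it, with a change of 0.49 ± 0.16 (limma adjusted p = 0.0849). Col1a1 was at 7.72, 7.99, 8.12, 7.92 and 8.12 on controls and at 8.29, 8.04 and 8.82 on inflamed arrays. Here too only replicate 2 fell within the controls, and the change was 0.41 ± 0.18 (limma adjusted p = 0.179). Col1a2, the second chain of type I, was at 7.46, 7.62, 7.82, 7.59 and 7.82 on controls and at 8.15, 7.82 and 8.17 on inflamed arrays, a change of 0.39 ± 0.11 (limma adjusted p = 0.0689). The groups touch at 7.82.

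Type V collagen mixes into type I fibrils and sets their diameter. Col5a2 was at 6.26, 6.41, 6.56, 6.34 and 6.41 on controls and at 6.79, 6.56 and 6.99 on inflamed arrays. Its change of 0.38 ± 0.10 came nearest to the threshold among the fibrillar genes (limma adjusted p = 0.0522), and the groups again touch at the value of inflamed replicate 2. Col5a1 was at 6.55 to 6.72 on controls and at 6.72, 6.49 and 6.93 on inflamed arrays, a change of 0.07 ± 0.10 with a 95% interval of -0.16 to 0.29. Col5a3 gave -0.06 ± 0.10. The other 5 fibrillar genes, Col2a1, Col11a1 and Col11a2 of cartilage and Col24a1 and Col27a1, gave negative differences, the farthest from 0 being -0.12 for Col11a2, and 0 passed.

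These calls near the threshold depended on single arrays, on scaling and on other settings, the Xist covariate among them. Without inflamed replicate 2, Col5a2 passed with a change of 0.49 (limma adjusted p = 0.0181) and Col1a2 with 0.50 (adjusted p = 0.0286), while Col1a1 (0.59, adjusted p = 0.0750) and Col3a1 (0.63, adjusted p = 0.0513) did not. Without inflamed replicate 3, the changes of Col1a1 and Col3a1 were 0.19 and 0.34. Col5a2 passed in 6 of 17 alternative settings, Col1a2 in 5, Col3a1 in 3 and Col1a1 in 0. With Xist as a covariate, Col5a2 (0.44, limma adjusted p = 0.0323), Col1a2 (0.45, adjusted p = 0.0379) and Col3a1 (0.59, adjusted p = 0.0311) passed. Col1a1 did not (0.53, limma adjusted p = 0.0596). Fibroblast markers moved in both directions on these arrays: of 9, Vim rose by 0.64 ± 0.12 and Thy1 by 0.58 ± 0.08, and Dpt fell by 0.58 ± 0.15 and Mfap5 by 0.34 ± 0.08. Both rises passed in all 8 fits with 1 array left out, and each fall in 1 of 8. All 10 leukocyte markers rose on the same arrays, and in bulk tissue the cells behind the rises of Vim and Thy1 cannot be told apart. The list mean was 7.32, 7.32, 7.58, 7.57 and 7.70 on controls and 7.41, 7.37 and 7.62 on inflamed arrays, so the groups overlap. In both groups the list mean was higher on the arrays with high Xist than on those with low Xist. The part of fibroblast or leukocyte number in the marker and fibrillar values was not tested.

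**Figure D3:**
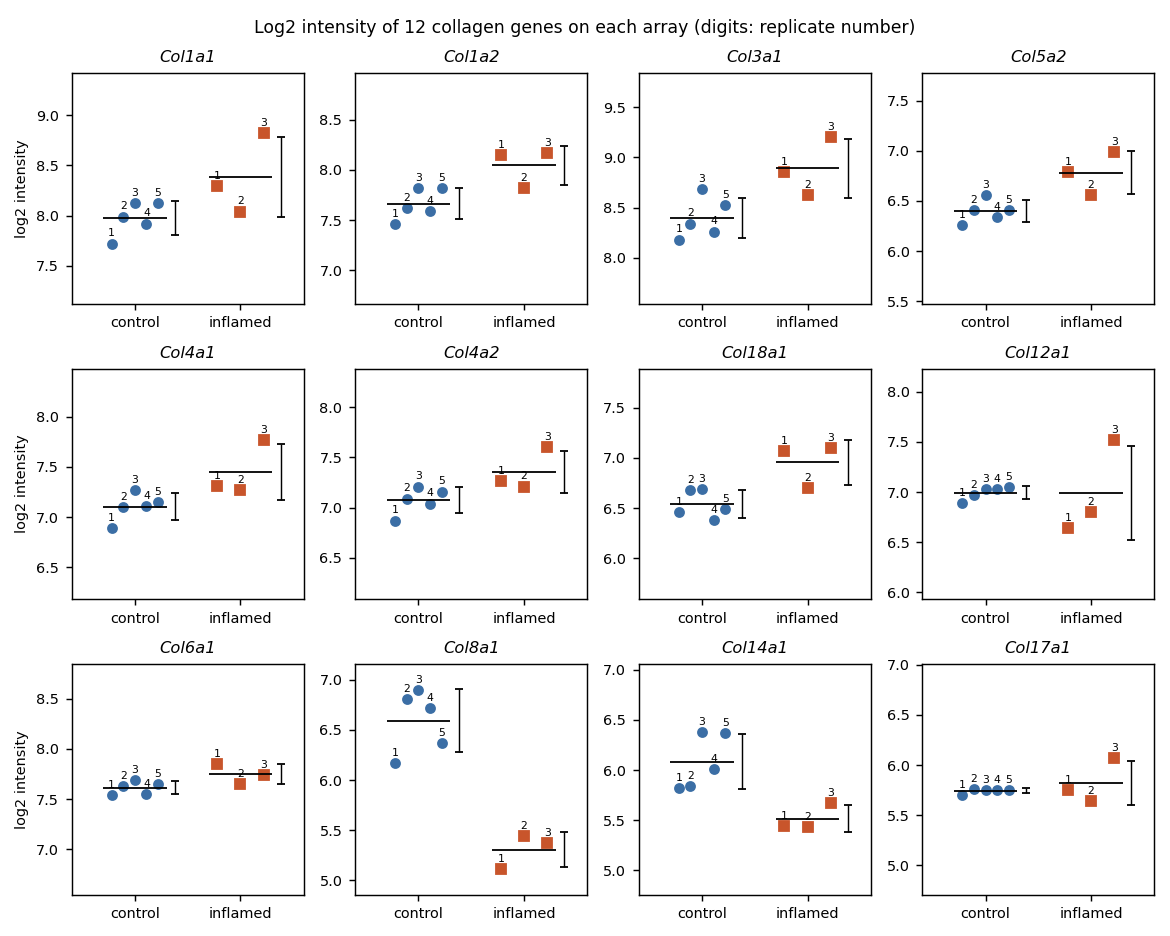
Log2 intensity of 12 collagen genes on each of 5 control (circles) and 3 inflamed (squares) arrays, with the replicate number beside each point, the group mean as a horizontal line and the SD as a vertical bar. Every panel spans the same log2 range. The Col8a1 groups are apart, 6.17 to 6.90 against 5.11 to 5.44, inflamed replicate 2 sits at the edge of the controls for Col1a2, Col3a1 and Col5a2, and inflamed replicate 3 stands above the rest for Col12a1 and Col17a1.

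Type IV collagen forms the sheet-like network of basement membranes, and 0 of its 6 chains passed. Col4a1 and Col4a2 assemble into the trimer found in nearly every basement membrane. Col4a1 was at 6.89, 7.10, 7.27, 7.11 and 7.15 on controls and at 7.31, 7.27 and 7.77 on inflamed arrays, a change of 0.34 ± 0.13 (limma adjusted p = 0.135). Col4a2 was at 6.87, 7.09, 7.21, 7.04 and 7.16 on controls and at 7.26, 7.21 and 7.60 on inflamed arrays, a change of 0.28 ± 0.11 (limma adjusted p = 0.136). For both, inflamed replicate 2 equalled the highest control to 2 decimals and replicate 3 lay well above. Without inflamed replicate 3 the changes were 0.18 and 0.16. With Xist as a covariate they were 0.43 and 0.36 and passed (limma adjusted p = 0.0310 and 0.0386). For each gene this was the only 1 of 17 alternative settings in which it passed. The genes lie on opposite strands with RefSeq starts 21 bases apart, and their first 22 bases overlap. The chains of specialised basement membranes, Col4a3, Col4a4, Col4a5 and Col4a6, gave -0.10 ± 0.06, -0.15 ± 0.09, -0.11 ± 0.07 and -0.16 ± 0.08. On inflamed replicates 1 and 3 each of these 4 genes lay at the lowest control value, while on replicate 2 they were at 5.38, 5.53, 5.13 and 4.65, below all controls.

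Multiplexins are proteoglycan-like collagens at basement membranes, and the end fragment of the Col18a1 product is endostatin, an inhibitor of vessel growth. Col18a1 was at 6.46, 6.68, 6.69, 6.38 and 6.49 on controls and at 7.07, 6.70 and 7.10 on inflamed arrays. All 3 inflamed values lay above the controls, replicate 2 only just (6.70 against 6.69). Its change of 0.42 ± 0.12 missed the threshold (limma adjusted p = 0.0557), and without inflamed replicate 2 it passed with 0.55 (adjusted p = 0.0157). It passed in 5 of 17 settings. Col15a1, the other multiplexin, was at 6.26 to 6.30 on controls and at 6.18, 6.17 and 6.26 on inflamed arrays, a change of -0.07 ± 0.03 (limma adjusted p = 0.176).

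Type VI collagen makes beaded filaments that link cells to the surrounding fibrils, and 0 of its 6 chains passed. Col6a1 was at 7.54, 7.63, 7.69, 7.55 and 7.65 on controls and at 7.85, 7.65 and 7.74 on inflamed arrays, a change of 0.14 ± 0.06 (limma adjusted p = 0.165). One inflamed value lay within the control range. Col6a2 gave 0.04 ± 0.09, with a 95% interval of -0.17 to 0.25, and Col6a3 gave 0.12 ± 0.07, with an interval of -0.04 to 0.29. These intervals do not reach the change of 0.49 seen for Col3a1, but they overlap its own interval of 0.13 to 0.86. The changes of types III and VI were not compared in a test. Of the chains that can stand in for Col6a3, Col6a4 gave 0.12 ± 0.09, Col6a5 -0.10 ± 0.09 and Col6a6 -0.08 ± 0.06. Col28a1, grouped with them by its build, gave -0.09 ± 0.06.

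The fibril-associated collagens with interrupted helices (FACITs) sit on the surface of fibrils, and all 9 had a negative difference, though 0 passed. Over all genes, 16964 of 30718 differences were negative. For 8 of the 9 FACITs the lowest value was that of inflamed replicate 2. Relative to the control mean, their median was -0.34 on that array, and -0.02 and 0.0 on the other inflamed arrays. Col14a1, which binds type I fibrils, was at 5.82, 5.84, 6.38, 6.01 and 6.37 on controls and at 5.44, 5.43 and 5.67 on inflamed arrays. The groups do not overlap, and the change of -0.57 ± 0.16 lay just outside the threshold (limma adjusted p = 0.0564). Leaving out any 1 array kept it between -0.65 and -0.50 with an adjusted p of 0.0516 to 0.165. Of the 17 alternative settings, Col14a1 passed in 3: median scaling, dim genes left out and Xist as a covariate. Col20a1 was at 6.07 to 6.17 on controls and at 5.96, 5.93 and 6.02 on inflamed arrays, a change of -0.14 ± 0.04 (limma adjusted p = 0.0513). It passed in 1 of 17 settings, that with array weights.

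Col12a1, the FACIT most like Col14a1 in build, was at 6.89, 6.97, 7.03, 7.03 and 7.05 on controls and at 6.64, 6.80 and 7.52 on inflamed arrays. Inflamed replicates 1 and 2 lay below every control and replicate 3 above every control, so that the mean change was -0.004 ± 0.18. Without replicate 3 the change was -0.27 ± 0.06 and passed (limma adjusted p = 0.0376). Replicate 3 was also the array on which genes of squamous epithelium, the lining of skin and anal canal, were present. Krt5 was at 9.71 there and at 5.84 to 6.06 on the other 7 arrays, Krt14 at 6.96, Dsg3 at 6.64 and Trp63 at 4.62, and the mean of these 4 genes was 6.98 against 4.65 to 4.85. Col17a1, the collagen by which keratinocytes are anchored at hemidesmosomes, was at 5.70 to 5.76 on controls and at 5.75, 5.64 and 6.07 on inflamed arrays. It too was highest on replicate 3, and its change of 0.08 ± 0.09 became -0.05 without that array. Replicate 3 also held the highest inflamed value of other genes, Col1a1, Col3a1, Col4a1, Col4a2 and the metalloproteinases Mmp3, Mmp10 and Mmp13 among them, but not of Col6a1 or Col8a1. The part of squamous tissue in any of these genes was not tested. Xist was high on replicate 3 as well, and on no other inflamed array.

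The remaining members are collagens of cartilage or of few cell types. The other 3 transmembrane collagens, Col13a1, Col23a1 and Col25a1, gave -0.13 ± 0.11, -0.18 ± 0.08 and -0.14 ± 0.08. Col23a1, with values of 6.52 to 6.59 on controls and 6.45, 6.16 and 6.52 on inflamed arrays, was at an adjusted p of 0.169. Col9a1, Col9a2 and Col9a3, the chains of a cartilage FACIT, gave -0.11 to -0.17, and in each the lowest value was that of inflamed replicate 2. Col10a1, a short-chain collagen of growth plate cartilage, gave -0.16 ± 0.07 at intensities of 3.80 to 4.20. With Col19a1 it was 1 of 2 members whose group means did not exceed 4.88, the median over all transcript clusters. Col26a1 belongs to no class used here and gave -0.14 ± 0.09. Across the 43 genes, the change went with the mean intensity (Pearson r = 0.49, Spearman rho = 0.51), compared with r = 0.05 over all genes. Without Col8a1, r was 0.65. The points share the same 8 arrays, and intensity depends on the probes as well as on the RNA.

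Chains of a shared trimer were then compared within each array, as the log2 difference of the first and second chain, in 10 pairs. An exact two-sided permutation test was run over the 56 ways to regroup the arrays. The smallest permutation p was 0.0179, the least this design allows, and 2 pairs reached it. After adjustment over the 10 pairs 0 passed (smallest adjusted p = 0.0893). Even the least p cannot pass after this adjustment unless more pairs are also low. The adjusted test therefore cannot decide on these 2 pairs. Col1a1 and Col1a2 kept a difference of 0.25 to 0.37 on controls, and gave 0.14, 0.23 and 0.65 on inflamed arrays. Their changes differed by 0.03 (exact permutation p = 0.857). Inflamed replicate 3 stands apart in favour of Col1a1. Col4a1 and Col4a2 differed in change by 0.06 (exact permutation p = 0.125). Their difference was -0.01 to 0.07 on controls and 0.05, 0.06 and 0.17 on inflamed arrays, which overlap.

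The groups did not overlap in Col5a1 with Col5a2, nor in Col8a1 with Col8a2. The first pair differed by 0.29, 0.31, 0.16, 0.23 and 0.26 on controls and by -0.07 on each of the 3 inflamed arrays. Col5a2 was thus 1.25-fold higher relative to Col5a1 in inflamed colon (exact permutation p = 0.0179, adjusted p = 0.0893). The second pair differed by -0.10, 0.49, 0.57, 0.41 and 0.05 on controls and by -1.21, -0.32 and -1.0 on inflamed arrays, so that Col8a2 was 2.19-fold higher relative to Col8a1 (exact permutation p = 0.0179, adjusted p = 0.0893). A difference within an array shows unequal change of the 2 probe sets, not that either of them did not change. A limma fit of the same differences passed both pairs (adjusted p = 0.000253 for type V and 0.00642 for type VIII).

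**Figure D4:**
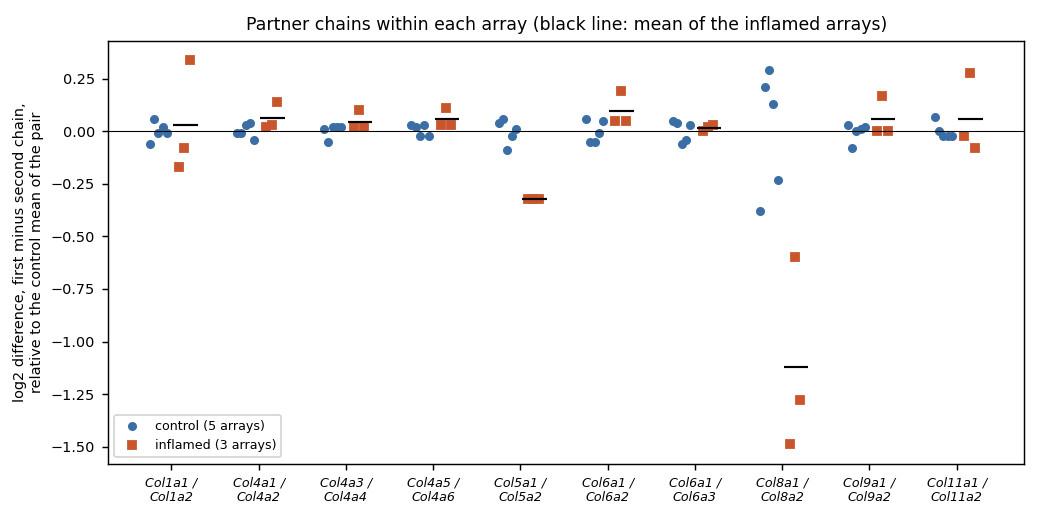
Within-array log2 difference between partner chains for 10 pairs, with the control mean of each pair set to 0, on 5 control (circles) and 3 inflamed (squares) arrays, and the inflamed mean as a black line. The type V pair lies at -0.32 on all 3 inflamed arrays and the type VIII pair at a mean of -1.13, and the inflamed points of the other 8 pairs overlap the controls.

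Genes that make, process, bind and degrade collagen were read from 5 lists. Of 20 measured genes of chain modification, folding and export, 2 rose and 2 fell, with a median change of -0.03. P4hb, a subunit of the prolyl hydroxylase that stabilises the helix and also a general disulfide isomerase, was at 10.85 to 11.11 on controls and at 11.43, 11.64 and 11.53 on inflamed arrays, a rise of 0.54 ± 0.08 (limma adjusted p = 0.00450). Mia2, which helps to export large cargo from the endoplasmic reticulum, rose by 0.67 ± 0.06, while its partner Mia3 fell by 0.25 ± 0.06. Creb3l1, a transcription factor of secretory cells that acts on type I collagen in bone, was at 9.74 to 10.12 on controls and at 8.29, 9.62 and 8.56 on inflamed arrays. It fell by 1.16 ± 0.28 (limma adjusted p = 0.0364), with replicate 2 just below the controls. With 1 array left out, both rises passed in all 8 fits, while Creb3l1 and Mia3 passed in 1 each, that without inflamed replicate 2. Serpinh1, the main collagen chaperone, gave 0.03 ± 0.04.

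Of 16 genes of processing and cross-linking, 1 rose and 0 fell. Lox, the lysyl oxidase that cross-links collagen and elastin, was at 5.09 to 5.32 on controls and at 5.71, 5.72 and 6.03 on inflamed arrays, a rise of 0.60 ± 0.09 (limma adjusted p = 0.00623). Loxl1, Loxl3 and Loxl4, of the same family, gave 0.01, -0.04 and -0.04. The fibril-binding proteoglycan Lum gave -0.43 ± 0.27 (adjusted p = 0.340), with 6.76 to 7.68 on controls and 6.48 to 7.26 on inflamed arrays.

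Of 11 collagen receptors 1 rose and 2 fell. Lair1, an inhibitory collagen receptor of leukocytes, rose by 1.16 ± 0.11 (limma adjusted p = 0.00122), on arrays where all 10 leukocyte markers rose. Adgrg1, a receptor that binds type III collagen, fell by 0.62 ± 0.09 and Ddr1, a receptor kinase of epithelial cells, by 0.25 ± 0.06. Lair1 and Adgrg1 passed in all 8 fits with 1 array left out, and Ddr1 in 1, that without inflamed replicate 1. Of 10 markers of colon epithelium 4 fell, Slc26a3 by 1.30 ± 0.32 and Muc2 by 0.69 ± 0.17, and 1 rose, Krt20 by 0.58 ± 0.12. With 1 array left out these passed in 2, 1 and 4 of 8 fits. The part of leukocytes or epithelium in the receptor values was not tested.

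Of 14 genes of collagen degradation 6 rose and 2 fell, with a median change of 0.41, the highest of the 5 lists. Mmp10, a stromelysin, was at 4.29 to 4.60 on controls and at 5.99, 7.15 and 8.04 on inflamed arrays, a rise of 2.64 ± 0.40 (limma adjusted p = 0.00604). Mmp13, a collagenase that cuts fibrils, was at 4.49 to 5.10 on controls and at 5.88, 6.79 and 8.61 on inflamed arrays, a rise of 2.30 ± 0.54 (limma adjusted p = 0.0338). Mmp3, the other stromelysin of the list, was at 4.46 to 4.65 on controls and at 5.33, 5.79 and 6.90 on inflamed arrays, a rise of 1.46 ± 0.31 (adjusted p = 0.0235). In all of these, replicate 3 was the highest and replicate 1 the lowest of the inflamed arrays, and the groups do not overlap. Mmp14, the membrane-bound activator of Mmp2, rose by 0.92 ± 0.11, Mmp2 by 0.51 ± 0.10 and the lysosomal collagenase Ctsk by 0.31 ± 0.08. Timp2, an inhibitor of metalloproteinases, fell by 0.34 ± 0.07 and Fap, a protease of activated fibroblasts, by 0.34 ± 0.08. The count of rises was 3 without control replicate 1, 2 or 4, and 4 without control replicate 3 or 5 or inflamed replicate 1. It was also 3 with a floor on low values. The count of falls was 0 without control replicate 4 or inflamed replicate 1 or 2, and 1 without control replicate 3 or 5 or inflamed replicate 3. Mmp10 and Mmp14 passed in all 8 fits with 1 array left out, Mmp3 in 3 and Mmp13 in 2.

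Of 21 genes of TGF-beta signalling, the best known inducer of fibrillar collagen, 5 rose and 2 fell, with a median of -0.04. The integrin subunits that release the latent ligand, Itgav and Itgb6, rose by 1.48 ± 0.12 and 1.28 ± 0.17 (limma adjusted p = 0.000706 and 0.00373). The ligand Tgfb1 rose by 0.60 ± 0.05 and the receptor Tgfbr2 by 0.56 ± 0.09. Skil, a repressor of the SMAD factors, rose by 1.14 ± 0.08, while Smad6, an inhibitory SMAD, fell by 0.38 ± 0.07 and Ltbp4, a latent ligand carrier, by 0.44 ± 0.09. All of these passed in each of the 8 fits with 1 array left out, except Ltbp4, which did not without control replicate 5. Ccn2, a known target of the pathway, gave -0.05 ± 0.07. Counts over these lists are descriptions beside the 13.1% of all genes that passed.

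**Figure D5:**
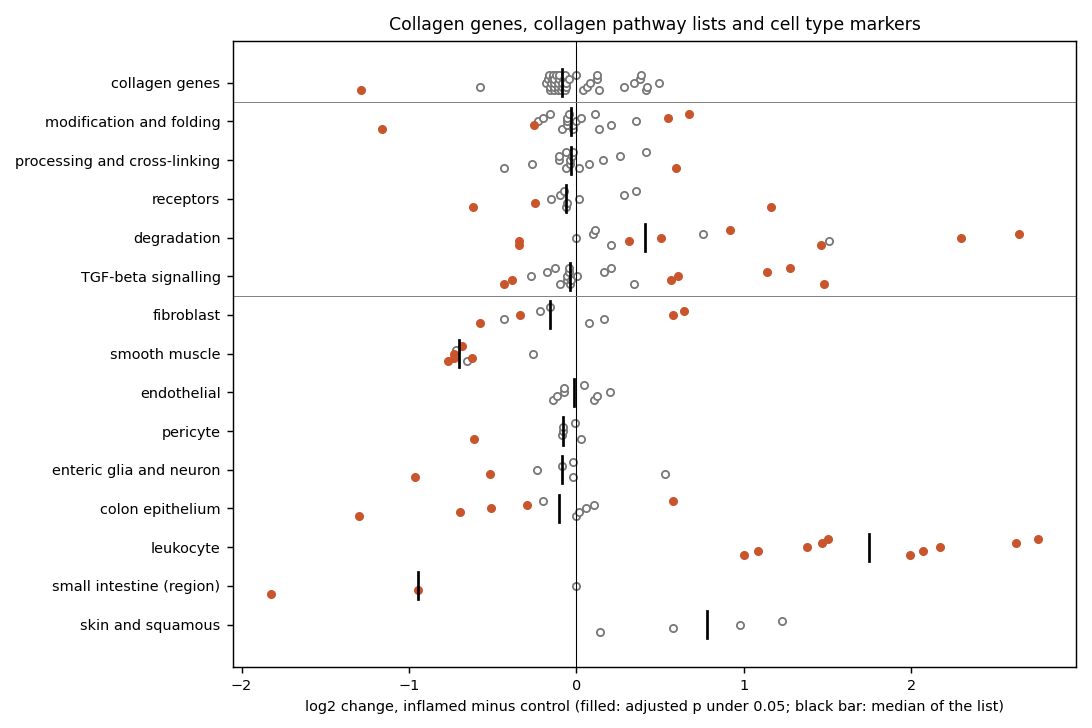
Change of each gene (log2, inflamed minus control) in the 43 collagen genes, 5 collagen pathway lists and 9 marker lists, with filled points for an adjusted p under 0.05 in limma and a black bar at the median of each list. The collagen genes crowd around -0.09 with Col8a1 apart at -1.28, the degradation list has a median of 0.41, smooth muscle markers lie at -0.70 and leukocyte markers at 1.75.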

How the data were processed

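Biotin-labelled targets from 8 colons were hybridised to Affymetrix arrays, per the labels' protocols. Per the submitters' processing notes, the authors used RMA and Affymetrix Expression Console, and the deposited log2 intensities, 1 per probe set, were analysed as they stand. The array model, software versions and genome build, all not given in the sources used here, remain unknown. RMA compresses low signals, so folds of dim genes are understated, and with 3 inflamed arrays precision is low.

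The table held 72688 probe sets, and the 6732 control probe sets were left out of all tests. Symbols came from the array annotation, 2092 of them updated through RefSeq GRCm38.p6. The 31280 probe sets that name exactly 1 gene covered 30718 genes, and the probe set with the highest mean was used for the 445 genes with several. With R 4.3.3 and limma 3.58.1, a linear model with moderated variances and no covariate compared inflamed with control colon, and adjusted p-values are Benjamini-Hochberg values over all genes. Scripts were tested on simulated data. Chain pairs were compared by an exact permutation test of within-array differences.

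The members, gene lists, tests and alternatives were chosen with earlier results of these data known. Named genes are every collagen gene past the threshold, all chains of types I, III, IV, V and VI, the largest changes of the other classes, pair members and, per list, the 3 largest changes past the threshold (the 2 largest of any if under 2 passed). Mia3, Serpinh1, Loxl1, Loxl3, Loxl4, Ccn2, Mfap5, Krt14, Trp63, Xist and the further genes past the threshold in the degradation and TGF-beta lists, were added after their values were seen. Some listed genes, Adamts2, Defa24, Fkbp10, Itga1, Loxl2, Pdgfra and Plod3 among them, are not analysed here. Alternatives were other scalings, a floor or filter at 4.88, means over probe sets, array weights, robust variances with an intensity trend, Xist as a covariate, replicate number as a block, and each array left out.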

Additional observations from a re-analysis of the deposited data

Results flagged for a closer look

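In the 5 control arrays, the gap of the highest or lowest value to its neighbour exceeded Dixon's critical share of the range (0.71) for 15 of the 79 genes picked by the naming rule, where chance gives about 1 in 20. Low values on control replicate 1 were 6.32 for Col2a1 (next 6.44), 6.27 for Col5a3 (6.38), 5.45 for Col6a6 (5.54), 5.59 for Col9a1 (5.65) and 5.70 for Col17a1 (5.75). High values on control replicate 2 were 5.73 for Col4a3 (next 5.64), 6.03 for Col4a4 (5.88), 5.50 for Col4a5 (5.39), 6.45 for Col9a3 (6.36), 5.37 for Col11a1 (5.29) and 5.43 for Col25a1 (5.32). Control replicate 3 was highest for Col15a1, at 6.30 (next 6.27), and for Col28a1, at 5.25 (5.21), and control replicate 5 for Col26a1, at 6.22 (6.16). Mia2 was highest on control replicate 1, at 8.99 (next 8.80). Each of these 14 collagen genes had exactly the same deposited value on at least 3 arrays. The groups of 3 inflamed arrays were not tested in this way.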

How the results depend on the processing

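Col8a1 passed in 16 of 17 alternatives, all but the replicate block. Titles of both groups share replicate numbers, but same-numbered arrays did not deviate together (correlations -0.29, -0.05 and 0.07). With the replicate number as a block, 0 of all genes passed, 0 collagen genes in either direction and 0 pathway genes. Replicate numbers 4 and 5 occur only in controls, so that fit compared the groups through numbers 1, 2 and 3 alone. Little was left to estimate the spread, so the fit cannot tell a lack of change from a lack of power. The count of collagen genes that rose, 0, became 4 under median scaling, 2 under quantile scaling, 3 with dim genes left out, and 5 with array weights or with Xist as covariate. The count that fell, 1, became 2 under median scaling, with dim genes left out, with array weights and with the Xist covariate. Leaving out 1 array gave 0 to 3 rises (3 without inflamed replicate 2), 1 to 2 falls, 2515 to 4581 genes of all (4031 with every array, 2515 without inflamed replicate 1) and 15 to 22 pathway genes (23 with every array, 15 without control replicate 4). Of the chain pairs, 2 passed in limma in place of the permutation test. Changes near 0 took the other sign with array weights in Col2a1 (0.008), Col5a3 (0.033), Col6a5 (0.006) and Col24a1 (0.009). Col12a1 did so under median scaling (0.032), the block (0.026) and the Xist covariate (0.10), and the pair Col4a5 and Col4a6 with a floor (-0.027). Leaving out 1 array crossed 0 for Col2a1 (-0.18 to 0.051), Col5a1 (-0.043 to 0.18), Col5a3 (-0.16 to 0.076), Col6a2 (-0.037 to 0.13), Col6a5 (-0.18 to 0.02), Col6a6 (-0.12 to 0.01), Col8a2 (-0.27 to 0.036), Col9a1 (-0.17 to 0.007), Col9a2 (-0.26 to 0.003), Col11a2 (-0.22 to 0.035), Col12a1 (-0.27 to 0.17), Col13a1 (-0.22 to 0.023), Col17a1 (-0.048 to 0.17), Col22a1 (-0.15 to 0.022), Col24a1 (-0.13 to 0.034), Col27a1 (-0.17 to 0.008) and Krt5 (-0.045 to 1.89). It also did so for the pairs Col1a1 and Col1a2 (-0.13 to 0.13), Col6a1 and Col6a3 (-0.002 to 0.027), and Col11a1 and Col11a2 (-0.052 to 0.13). The causes were not tested.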
